A study of Mus musculus with 18 samples.

Results

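The aortas of 2-mo HGPS mice were compared directly with those of 24-mo WT mice, to ask how the accelerated disease of the vessel differs from its normal old age. The comparison took the 6 HGPS and 6 24-mo WT libraries of 18 in the series and, of 54281 genes in the count table, the 14925 that reached 10 counts in 6 or more of these 12 libraries. The HGPS mice carried the Lmna mutation written as LMNAG609G in the labels and were 64 to 75 d old. The 24-mo WT mice had ages of 609 to 762 d, and all were male C57BL/6 mice that received no treatment named in the labels. RNA came from whole descending aorta with intima, media and adventitia together and was depleted of ribosomal RNA before stranded sequencing. Genotype and age differ together between the groups and cannot be told apart. The 6 WT mice at 2 mo, of which 5 were 62 d old and 1 was 95 d old, stood outside the test, and their levels are given only to place both groups.

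Lamin A is a structural protein of the nuclear lamina, and the HGPS mutation makes cells splice part of its message out, which leaves the truncated and permanently farnesylated protein progerin. Large arteries are the tissue in which progerin does most harm. The vessels stiffen, and late disease brings loss of medial smooth muscle cells, thickened adventitia and calcification. In HGPS aortas of the young age studied here, the paper reported numbers of medial smooth muscle nuclei similar to age-matched WT aortas. It also saw no increase in calcification or apoptosis at that age. Arterial stiffness depends on elastin, on the fibrillar collagens and on lysyl oxidase, the copper enzyme that cross-links both outside the cell. Normal aging also stiffens arteries, over most of a lifetime rather than within weeks.

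The libraries held 17838351 to 30844775 counts in HGPS and 13622602 to 19871697 counts in 24-mo WT aortas. Levels are given as CPM, read counts relative to the library total after TMM scaling, as the lowest and highest of 6 mice with the median, and differences as log2 fold changes of HGPS over 24-mo WT with their standard error. A gene was called, and is said to have risen or fallen in HGPS, when edgeR's quasi-likelihood test gave a change of 1.5-fold or more and a Benjamini-Hochberg adjusted p below 0.001. Defining markers of aorta were abundant in every library. Summed smooth muscle markers lay at 24570 to 33440 CPM in HGPS and 38390 to 43850 CPM in 24-mo WT aortas, and summed endothelial markers overlapped between the groups, at 1154 to 1514 and 693 to 1726 CPM. Fewer cells of a type and less RNA per cell cannot be told apart in whole tissue. The paper's counts of smooth muscle nuclei, similar between genotypes, set HGPS aortas beside young WT and not 24-mo WT aortas.

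Of the 14925 genes, 1536 were called (10.3%), 741 higher in HGPS (4.96%) and 795 lower (5.33%). All 6 HGPS mice lay outside the range of the 24-mo WT mice for 3357 genes (22.5%). Among the called genes 1466 were apart in this way. Most differences were moderate. Of the genes called higher 364 rose by less than 2-fold and 105 by more than 4-fold, and of those called lower 477 fell by less than 2-fold and 53 by more than 4-fold. The median log2 fold change over all genes tested was -0.01, a value that the scaling itself sets near 0.

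**Figure D1:**
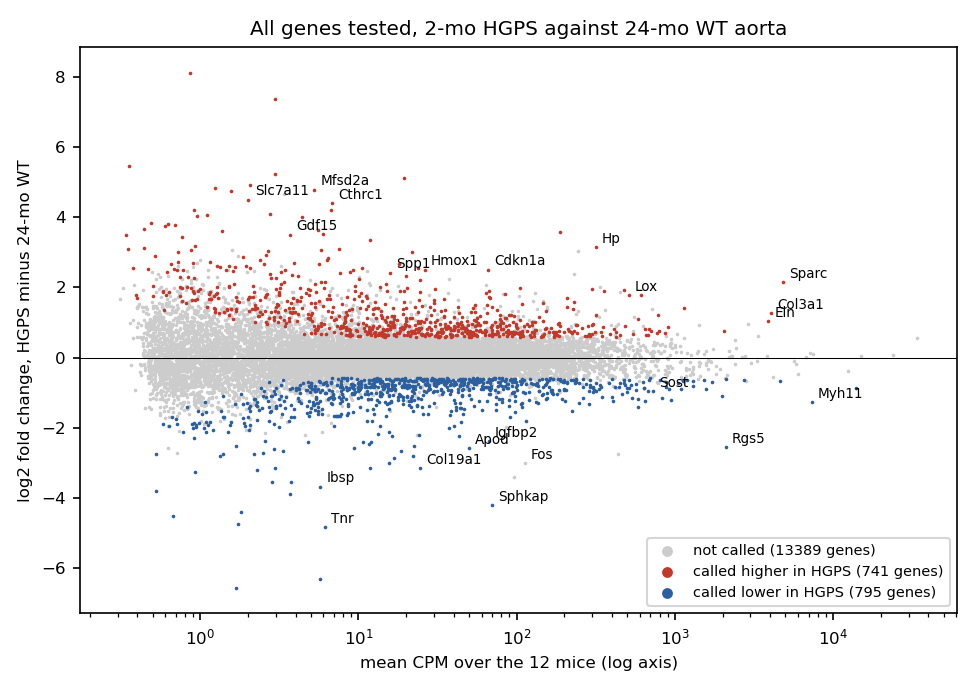
Each point is 1 of the 14925 genes tested, with its mean CPM over the 12 mice on a log axis and its log2 fold change of HGPS over 24-mo WT on the vertical axis. The 741 genes called higher and the 795 called lower spread over the whole range of expression, and abundant genes such as Sparc, Lox and Col3a1 lie among the rises and Myh11 and Rgs5 among the falls.

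Lox, which encodes lysyl oxidase itself, was measured at 717 to 949 CPM (median 763) in HGPS and 209.5 to 250.1 CPM (median 229.7) in 24-mo WT aortas. The lowest HGPS mouse lay far above the highest 24-mo WT mouse. It had a log2 fold change of 1.79 ± 0.084, adjusted p = 7.98e-09, and a two-sided exact permutation test over the 12 mice gave p = 0.00216, the smallest it can give with 6 against 6. The 2-mo WT aortas lay between the groups at 370.4 to 525 CPM (median 438). Lox is at chr18:52516067-52529867 on the minus strand of GRCm38.

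Lox is 1 of a list of genes that modify, fold, trim or cross-link collagen. Of its 31 tested members, 14 were called higher, Lox included (45.2%, against 4.96% of all genes), and none lower, with a median log2 fold change of 0.59. Sparc, a collagen-binding glycoprotein that helps secreted collagen assemble, stood at 7062 to 9135 CPM (median 7826) in HGPS and 1604 to 1911 CPM (median 1840) in 24-mo WT aortas. The groups were far apart, with a log2 fold change of 2.15 ± 0.086, adjusted p = 2.42e-09. Pcolce2, which enhances removal of the C-propeptide of procollagen, was measured at 278 to 354 CPM (median 295) in HGPS and 82.4 to 127 CPM (median 114) in 24-mo WT aortas (log2 fold change 1.45 ± 0.10, adjusted p = 2.89e-07). P4ha3, a prolyl hydroxylase subunit, was scarce at 0.712 to 2.78 CPM (median 1.65) in HGPS and 0 to 0.359 CPM (median 0.163) in 24-mo WT aortas (log2 fold change 3.19 ± 0.50, adjusted p = 0.000199).

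The lysyl oxidase family was read further for its kinship with Lox, a choice made after its values were seen. Loxl2 and Loxl4 were called higher, by 0.79 ± 0.11 (adjusted p = 5.94e-05) and 0.96 ± 0.11 (adjusted p = 2.28e-05) on the log2 scale. Loxl1 had a log2 fold change of 0.59 ± 0.12 that missed the threshold (adjusted p = 0.00121), and Loxl3 one of 0.019 ± 0.076 (adjusted p = 0.858). Among the enzymes that hydroxylate collagen lysines, Plod2 was called at 0.83 ± 0.072 (adjusted p = 1.53e-06), and Plod1 at 0.53 ± 0.078 lay under the 1.5-fold limit. Serpinh1, the collagen chaperone HSP47, rose by 0.87 ± 0.10 (adjusted p = 1.29e-05).

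The fibrillar collagens themselves were mixed. Of 8 tested, 2 were called higher and none lower (25% called, against 10.3% of all genes), with a median log2 fold change of 0.64. Col3a1, the main partner of type I collagen in the vessel wall, was at 4139 to 8415 CPM (median 5685) in HGPS and 1942 to 2855 CPM (median 2376) in 24-mo WT aortas. It had a log2 fold change of 1.28 ± 0.16, adjusted p = 2.6e-05, but the 2-mo WT aortas were higher still in the median, at 6092 to 9080 CPM (median 7351). Col5a2, a chain of the type V collagen that seeds fibrils, was at 896 to 1381 CPM (median 1078) in HGPS and 437 to 511 CPM (median 475) in 24-mo WT aortas (log2 fold change 1.21 ± 0.093, adjusted p = 5.78e-07). Col1a1 and Col1a2, the chains of type I collagen, overlapped between groups, with log2 fold changes of 0.66 ± 0.32 (adjusted p = 0.105) and 0.63 ± 0.16 (adjusted p = 0.00541), and Col5a1 had one of 0.13 ± 0.17 (adjusted p = 0.546). Some of these values were different with the brown fat score described further on. With that score as a covariate Col1a1 and Col5a1 had log2 fold changes of -0.28 and -0.32, and the median of the list was 0.19. Col3a1 then had a log2 fold change of 1.365, no smaller than without the score, but was no longer called (adjusted p = 0.00503). Col5a2 kept its call at 1.31 (adjusted p = 0.000399). Col11a1, a minor fibrillar chain of cartilage and injured tissue, reached a log2 fold change of 4.65 ± 0.91, adjusted p = 0.00101, and so fell just outside the call, with values of 0.963 to 21.8 CPM in HGPS and 0.0541 to 0.529 CPM in 24-mo WT aortas.

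Among 24 other collagens 3 were called higher and 1 lower (16.7% called, against 10.3% of all genes), with a median of -0.03. Col8a1, a short-chain collagen made by smooth muscle cells in injured arteries, was at 63.7 to 256 CPM (median 109) in HGPS and 28 to 43 CPM (median 39.2) in 24-mo WT aortas (log2 fold change 1.80 ± 0.30, adjusted p = 0.000337). Col12a1, which coats the surface of fibrils, was at 79.9 to 287 CPM (median 149.7) in HGPS and 39.1 to 71 CPM (median 55) in 24-mo WT aortas (log2 fold change 1.52 ± 0.28, adjusted p = 0.000699). Leaving out single mice ended the call of Col8a1 in 3 and of Col12a1 in 10 of 12 fits. Col19a1, a basement membrane collagen, was at 3.41 to 7.43 CPM (median 4.76) in HGPS and 35.3 to 52.7 CPM (median 43.9) in 24-mo WT aortas, with a log2 fold change of -3.16 ± 0.18, adjusted p = 4.34e-08, and no mouse of one group came near the other.

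Elastic fibre genes moved in both directions, with 3 of 17 called higher and 2 lower (29.4% called, against 10.3% of all genes). Eln, elastin, was at 3755 to 6447 CPM (median 5126) in HGPS and 1666 to 3073 CPM (median 2682) in 24-mo WT aortas (log2 fold change 1.05 ± 0.16, adjusted p = 0.000126), while the 2-mo WT aortas lay at 3110 to 6268 CPM (median 5342), as high as HGPS. Mfap5, a microfibril protein, behaved alike at 247 to 443 CPM (median 332) in HGPS and 90.7 to 144 CPM (median 118) in 24-mo WT aortas (log2 fold change 1.57 ± 0.16, adjusted p = 4.88e-06), and its 2-mo WT range was 228 to 297 CPM (median 281). Efemp1, fibulin-3, was the largest fall of the list at 18.2 to 28 CPM (median 23) in HGPS and 51.9 to 78.6 CPM (median 74.2) in 24-mo WT aortas (log2 fold change -1.60 ± 0.12, adjusted p = 5.04e-07). Ltbp4, which binds latent TGF-beta and is needed to assemble elastic fibres, fell by 0.99 ± 0.16 on the log2 scale (adjusted p = 0.000202). Fbn1, fibrillin-1, had a log2 fold change of 0.37 ± 0.13 (adjusted p = 0.0273) and was not called.

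Proteoglycans and the proteins that bind them were split, with 2 of 26 called higher and 3 lower (19.2% called, against 10.3% of all genes). Cilp2, a cartilage intermediate layer protein, was at 2.6 to 7.93 CPM (median 5.43) in HGPS and 0.664 to 1.58 CPM (median 0.872) in 24-mo WT aortas (log2 fold change 2.45 ± 0.28, adjusted p = 1.68e-05), and 2-mo WT aortas were level with HGPS at 3.5 to 8.1 CPM (median 5.2). Its relative Cilp rose by 1.65 ± 0.21 (adjusted p = 3.87e-05). Hapln1, which links hyaluronan to proteoglycans, was at 2.7 to 4.83 CPM (median 3.4) in HGPS and 14.4 to 22.4 CPM (median 21.2) in 24-mo WT aortas (log2 fold change -2.46 ± 0.16, adjusted p = 1.5e-07). Vcan, versican, and Dcn, decorin, fell by 0.90 ± 0.15 (adjusted p = 0.00025) and 0.69 ± 0.11 (adjusted p = 0.000213).

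Of the matrix metalloproteinases and their inhibitors, 2 of 17 rose and 1 fell (17.6% called, against 10.3% of all genes). Mmp2, gelatinase A, was at 280.0 to 419.5 CPM (median 319) in HGPS and 105 to 152 CPM (median 127) in 24-mo WT aortas (log2 fold change 1.39 ± 0.11, adjusted p = 7.9e-07), and its inhibitor family member Timp1 at 34.9 to 73.2 CPM (median 51) in HGPS and 12.2 to 22.6 CPM (median 16.1) in 24-mo WT aortas (log2 fold change 1.67 ± 0.19, adjusted p = 1.76e-05). The groups did not overlap for either gene. Mmp9, gelatinase B, was lower in HGPS, at 2.56 to 5.72 CPM (median 4.62) in HGPS and 6.4 to 11.4 CPM (median 9.53) in 24-mo WT aortas (log2 fold change -1.06 ± 0.19, adjusted p = 0.000472), a call lost in 7 of 12 fits that each left out a mouse.

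Matricellular proteins, secreted proteins that signal to cells from the matrix, had 3 of 18 members called higher and 5 lower (44.4%, against 10.3% of all genes). Cthrc1, made by activated adventitial cells and smooth muscle cells of injured arteries, was at 1.77 to 31.2 CPM (median 10.7) in HGPS and 0.371 to 0.934 CPM (median 0.571) in 24-mo WT aortas (log2 fold change 4.41 ± 0.68, adjusted p = 0.000175). The HGPS mice differed widely among themselves, yet the lowest lay above every 24-mo WT mouse. Sbspon was at 1.75 to 2.81 CPM (median 2.53) in HGPS and 16.5 to 29.2 CPM (median 20.2) in 24-mo WT aortas (log2 fold change -3.15 ± 0.16, adjusted p = 1.31e-08). Sparcl1, the closest relative of Sparc, went the opposite way to it, at 269 to 404 CPM (median 374) in HGPS and 657 to 1179 CPM (median 733) in 24-mo WT aortas (log2 fold change -1.20 ± 0.15, adjusted p = 2.49e-05).

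**Figure D2:**
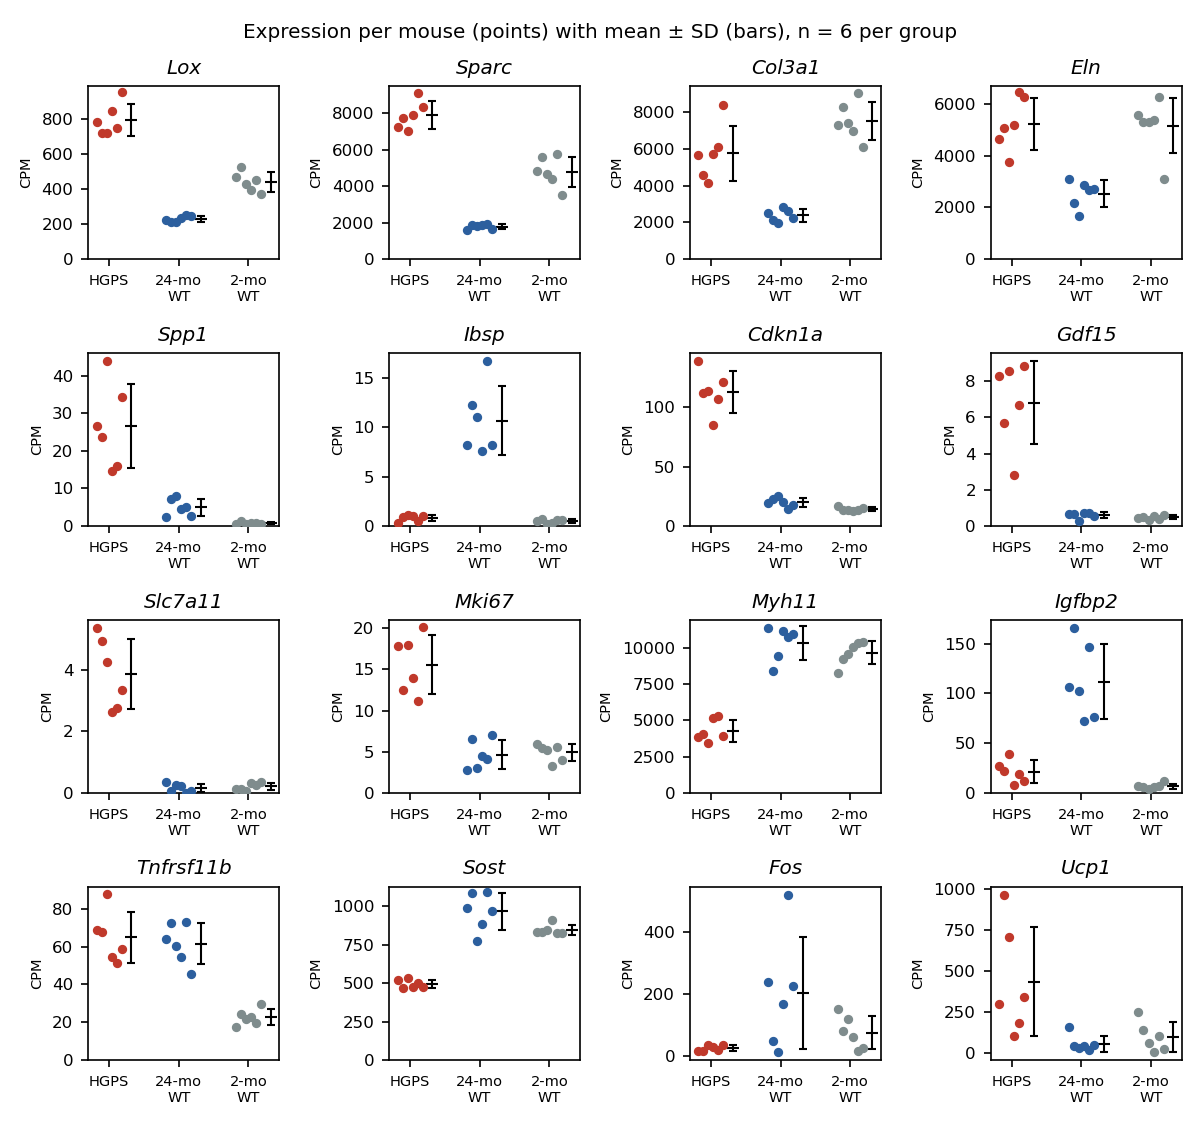
CPM of 16 genes in each mouse (points) with the group mean and SD (bars), for 2-mo HGPS, 24-mo WT and, outside the test, 2-mo WT aortas, 6 mice each. HGPS and 24-mo WT mice overlap for Tnfrsf11b, Fos and Ucp1 and lie apart in the other panels.

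Regulators of calcification differed gene by gene, with 3 of 18 tested called higher and 2 lower (27.8%, against 10.3% of all genes). Their median was 0.26. Spp1, osteopontin, a secreted inhibitor of mineral growth, was at 14.8 to 43.9 CPM (median 25.2) in HGPS and 2.35 to 7.9 CPM (median 4.69) in 24-mo WT aortas (log2 fold change 2.42 ± 0.33, adjusted p = 5.87e-05). In 2-mo WT aortas it lay at 0.491 to 1.37 CPM (median 0.677), below every mouse of both groups. Ibsp, bone sialoprotein, a mineral-nucleating matrix protein related to osteopontin, showed the reverse at 0.281 to 1.12 CPM (median 0.947) in HGPS and 7.59 to 16.7 CPM (median 9.6) in 24-mo WT aortas (log2 fold change -3.68 ± 0.28, adjusted p = 5.8e-07), and its 2-mo WT level was 0.21 to 0.713 CPM (median 0.515). Spp1 was therefore highest in HGPS and Ibsp in 24-mo WT aortas.

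Sost, sclerostin, a secreted Wnt inhibitor made by aortic smooth muscle, was at 470.5 to 531 CPM (median 484) in HGPS and 776 to 1092 CPM (median 976) in 24-mo WT aortas (log2 fold change -0.97 ± 0.085, adjusted p = 1.69e-06), and 2-mo WT aortas lay at 822 to 911 CPM (median 834), near the old mice. Tnfrsf11b, osteoprotegerin, which protects arteries from calcification, did not separate the groups, at 51.4 to 88 CPM (median 63.3) in HGPS and 45.3 to 73.2 CPM (median 62.1) in 24-mo WT aortas (log2 fold change 0.073 ± 0.14, adjusted p = 0.698). Its 2-mo WT level was 17.6 to 29.8 CPM (median 22.3), under every mouse of the other groups. Of 18 genes of Wnt signaling 1 rose and 2 fell (16.7% called, against 10.3% of all genes). Sfrp1, a secreted Wnt antagonist, rose by 1.01 ± 0.19 (adjusted p = 0.000864), a call lost in 10 of 12 fits that each left out a mouse, and Nkd1, an intracellular inhibitor that Wnt signals induce, fell by 1.46 ± 0.12 (adjusted p = 1.27e-06).

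Genes of cell division and DNA replication formed the functional list with the largest median difference. Of 43 tested, 26 were called higher and none lower (60.5% called, against 10.3% of all genes), all 43 log2 fold changes were positive and the median was 1.49. Mki67, the marker of cycling cells, was at 11.1 to 20.1 CPM (median 15.9) in HGPS and 2.76 to 7.04 CPM (median 4.31) in 24-mo WT aortas (log2 fold change 1.74 ± 0.23, adjusted p = 4.93e-05). Ccnb1, the mitotic cyclin, was at 1.98 to 4.65 CPM (median 3.45) in HGPS and 0.492 to 1.36 CPM (median 0.806) in 24-mo WT aortas (log2 fold change 2.04 ± 0.28, adjusted p = 5.96e-05), and Ncapg, a condensin subunit, at 0.758 to 2.63 CPM (median 1.38) in HGPS and 0.216 to 0.494 CPM (median 0.271) in 24-mo WT aortas (log2 fold change 2.27 ± 0.35, adjusted p = 0.00017). These are low levels in both groups, and the 2-mo WT aortas resembled the old ones, with Mki67 at 3.25 to 5.94 CPM (median 5.33). The score of the list, its mean log2 CPM, was 1.92 to 2.40 in HGPS, 0.511 to 1.03 in 24-mo WT and 0.669 to 1.21 in 2-mo WT aortas. With macrophage and B and plasma cell scores as covariates the median was 1.09 and no member was called. That fit called 315 of all 14925 genes, 122 of them higher, against 1536 without these scores. Macrophage markers themselves summed to 958 to 1457 CPM in HGPS and 547 to 1080 CPM in 24-mo WT aortas. The part of macrophages in the division genes was not tested.

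The promoters of the division genes were searched for elements known to control them. A window of 250 bases before and 50 after the start of transcription was read from RefSeq for GRCm38.p6, and 21 of the 26 called genes had one. The CHR element, by which repressor complexes hold division genes silent outside mitosis, was searched as TTTGAA or TTCGAA on both strands and was found in 16 of the 21 (76.2%), against 19.4% of 27025 mouse promoters. The CCAAT box, searched as CCAAT on both strands, was found in 20 of the 21 (95.2%), against 37.9% of all promoters. Of all tested list members with a window, 22 of 34 (64.7%) held the CHR and 29 of 34 (85.3%) the CCAAT box. The list was made of known division genes, so that an excess over all promoters does not set the called genes apart. A match describes the letters only. Examples are shown 5′ to 3′ along the gene with the CHR letters in capitals, from genes that rose.
Cdk1 (minus strand, chr10:69352910-69352939): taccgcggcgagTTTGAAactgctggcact
Cdc20 (minus strand, chr4:118437344-118437373): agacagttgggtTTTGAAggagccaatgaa
Mki67 (minus strand, chr7:135716478-135716507): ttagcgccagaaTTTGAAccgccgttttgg

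Brakes of the cell cycle were read beside these genes. Of 35 tested p53 targets and cell cycle inhibitors, 14 were called higher and 2 lower (45.7% called, against 10.3% of all genes). Their median was 0.52. Cdkn1a, p21, the inhibitor of cyclin-dependent kinases, was at 85.2 to 139 CPM (median 112) in HGPS and 14.2 to 25.1 CPM (median 19.9) in 24-mo WT aortas (log2 fold change 2.51 ± 0.14, adjusted p = 2.89e-08). No HGPS mouse came near the 24-mo WT range, and 2-mo WT aortas lay at 12.8 to 17.1 CPM (median 13.5). Gdf15, a stress-induced cytokine, was at 2.82 to 8.84 CPM (median 7.48) in HGPS and 0.27 to 0.715 CPM (median 0.646) in 24-mo WT aortas (log2 fold change 3.51 ± 0.30, adjusted p = 1.53e-06). Pmaip1, the pro-apoptotic Noxa, was at 2.13 to 3.03 CPM (median 2.64) in HGPS and 0.117 to 0.927 CPM (median 0.381) in 24-mo WT aortas (log2 fold change 2.61 ± 0.33, adjusted p = 3.51e-05). Eda2r, the ectodysplasin A2 receptor, and Ccng1, cyclin G1, rose by 1.91 ± 0.12 (adjusted p = 1.09e-07) and 1.22 ± 0.08 (adjusted p = 1.5e-07). Both were picked as examples after their values were seen.

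Tigar and Rrm2b, p53 targets of sugar metabolism and nucleotide supply, fell instead, by 1.01 ± 0.09 (adjusted p = 1.86e-06) and 0.59 ± 0.10 (adjusted p = 0.000325), the call of Rrm2b being lost in 6 of 12 fits that each left out a mouse. The message of p53 itself, Trp53, overlapped between groups at a log2 fold change of 0.18 ± 0.12 (adjusted p = 0.224). Cdkn2a, the gene of p16, did not pass the count filter, with 0 to 2 counts per HGPS and 1 to 4 counts per 24-mo WT library, so that a difference was not detectable at this depth. Ckap2, a spindle protein that p53 also regulates, rose by 2.49 ± 0.24 (adjusted p = 4.24e-06).

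The unfolded protein and integrated stress responses adjust protein folding and amino acid supply. Of 38 tested genes, 21 were called higher, none lower and 17 not at all (55.3% called, against 10.3% of all genes). Their median was 0.84. The score of the list was 6.07 to 6.35 in HGPS and 5.26 to 5.46 in 24-mo WT aortas, while 2-mo WT aortas were at 5.31 to 5.49, like the old mice. Slc7a11, the cystine transporter, was at 2.63 to 5.34 CPM (median 3.78) in HGPS and 0 to 0.352 CPM (median 0.145) in 24-mo WT aortas (log2 fold change 4.50 ± 0.43, adjusted p = 3.39e-06). Chac1, which breaks down glutathione, was at 4.59 to 9.62 CPM (median 6.98) in HGPS and 0.68 to 1.22 CPM (median 1.18) in 24-mo WT aortas (log2 fold change 2.70 ± 0.22, adjusted p = 8.06e-07), and Psat1 of serine synthesis at 28.6 to 40.9 CPM (median 32.4) in HGPS and 5.7 to 8.69 CPM (median 6.31) in 24-mo WT aortas (log2 fold change 2.33 ± 0.11, adjusted p = 8.26e-09). Asns, asparagine synthetase, was at 17.8 to 32.2 CPM (median 23) in HGPS and 4.2 to 10.3 CPM (median 5.8) in 24-mo WT aortas (log2 fold change 1.90 ± 0.22, adjusted p = 1.65e-05), and its log2 fold change was 0.86 (adjusted p = 0.0148), no longer a call, with the brown fat score as a covariate. Ddit3, the transcription factor CHOP, was at 21.1 to 32.3 CPM (median 24.4) in HGPS and 10.2 to 18.7 CPM (median 13.6) in 24-mo WT aortas (log2 fold change 0.93 ± 0.15, adjusted p = 0.00027). Of the chaperones of the endoplasmic reticulum, Hspa5, known as BiP, rose by 1.42 ± 0.12 (adjusted p = 8.95e-07) and Hsp90b1 by 0.76 ± 0.074 (adjusted p = 3.93e-06).

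Both arms of this response are known for a DNA element each, and 19 of the 21 called genes had a promoter window. The composite site bound by ATF4, searched as TGATG, any base and AA on both strands, was found in 4 of the 19 (21.1%), against 4.06% of all promoters, in Chac1, Trib3, Slc7a11 and Asns. The ER stress element was searched as CCAAT and CCACG with 9 bases between them on both strands, and holds a CCAAT box by its definition. It was found in 5 of the 19 (26.3%), against 0.13% of all promoters, in Hspa5, Calr, Hsp90b1, Pdia6 and Creld2. Of all tested list members with a window, 7 of 34 (20.6%) held the ATF4 site and 7 of 34 (20.6%) the ER stress element. The list was made of known genes of these responses, so that an excess over all promoters does not set the called genes apart. The windows below show these elements in capitals, those of Slc7a11 and Asns for ATF4 and the others for ER stress, and the absence of a match elsewhere says only that these letters are not in the window.
Slc7a11 (minus strand, chr3:50443661-50443690): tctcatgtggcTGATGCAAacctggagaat
Asns (minus strand, chr6:7693214-7693243): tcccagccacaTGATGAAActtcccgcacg
Hspa5 (plus strand, chr2:34772020-34772049): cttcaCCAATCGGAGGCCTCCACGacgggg
Hsp90b1 (minus strand, chr10:86705632-86705661): caagcCCAATCGCAAGGAGCCACGcttcgg

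Hmox1, heme oxygenase, which breaks down heme under oxidative stress, had 1 of the smallest p-values of all rises. It was at 35.8 to 52.8 CPM (median 43.8) in HGPS and 6.87 to 10.3 CPM (median 7.49) in 24-mo WT aortas (log2 fold change 2.51 ± 0.12, adjusted p = 8.26e-09), and 2-mo WT aortas lay at 6 to 9.25 CPM (median 8.19), level with the old mice. Other rises of very small p were Cgref1, a secreted calcium-binding protein, at 33.7 to 46.3 CPM (median 41) in HGPS and 5.5 to 8.05 CPM (median 6.96) in 24-mo WT aortas (log2 fold change 2.57 ± 0.12, adjusted p = 7.98e-09), and Ppic, cyclophilin C, at 103 to 119 CPM (median 108) in HGPS and 39.1 to 46.1 CPM (median 41.4) in 24-mo WT aortas (log2 fold change 1.37 ± 0.06, adjusted p = 6.6e-09).

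Smooth muscle contracts through a specialized set of myosin, actin and calcium-handling proteins. Of 29 tested genes of contraction, 17 were called lower (58.6%, against 5.33% of all genes) and none higher. Their median log2 fold change was -0.65. Myh11, smooth muscle myosin heavy chain, was at 3418 to 5291 CPM (median 3975) in HGPS and 8383 to 11370 CPM (median 10822) in 24-mo WT aortas (log2 fold change -1.27 ± 0.12, adjusted p = 3.27e-06), and the 2-mo WT aortas lay at 8294 to 10408 CPM (median 9822), so that all HGPS mice were below both WT groups. Pln, phospholamban, the brake on the calcium pump of the sarcoplasmic reticulum, was at 0.511 to 1.42 CPM (median 0.871) in HGPS and 4.1 to 7.51 CPM (median 5.76) in 24-mo WT aortas (log2 fold change -2.66 ± 0.22, adjusted p = 1.17e-06). Synpo2 and Mylk4 fell by 1.21 ± 0.14 (adjusted p = 1.55e-05) and 1.21 ± 0.22 (adjusted p = 0.000662), the latter call being lost in 8 of 12 fits that each left out a mouse. Acta2, smooth muscle actin, had HGPS mice below all 24-mo WT mice but a log2 fold change of -0.39 ± 0.086 (adjusted p = 0.00217), under the limits of a call. Tagln and Myocd, a marker protein and the master regulator of the lineage, had log2 fold changes of -0.11 ± 0.10 (adjusted p = 0.405) and 0.11 ± 0.13 (adjusted p = 0.505).

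The CArG box, to which serum response factor binds in many contractile genes, was found in 3 of 25 tested genes with a promoter window (12%). All 3 were among the 15 called genes with a window (20%), against 1.57% of all promoters. They were Myl9, Ldb3 and Srf, the gene of the factor itself, which fell by 0.63 ± 0.085 on the log2 scale (adjusted p = 5.72e-05). The list was made of contractile genes, so that an excess over all promoters does not set the called genes apart. The box of Myl9 and the nearer of the boxes of Srf are shown in capitals.
Myl9 (plus strand, chr2:156775293-156775322): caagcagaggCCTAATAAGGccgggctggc
Srf (minus strand, chr17:46556205-46556234): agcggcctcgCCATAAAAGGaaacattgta

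Of 36 tested ion channels and pumps of smooth muscle, 15 were called lower, 1 higher and 20 not at all (44.4% called, against 10.3% of all genes). Their median was -0.50. Kcnc4, a voltage-gated potassium channel, was at 4.74 to 7.21 CPM (median 5.68) in HGPS and 14.4 to 36.2 CPM (median 26) in 24-mo WT aortas (log2 fold change -2.11 ± 0.20, adjusted p = 3.76e-06), and Kcnd3, another, at 13.8 to 25 CPM (median 19.6) in HGPS and 50.2 to 65.5 CPM (median 56.3) in 24-mo WT aortas (log2 fold change -1.52 ± 0.12, adjusted p = 8.46e-07). Both had 2-mo WT mice above HGPS in the median. Cacna1h, a T-type calcium channel, was at 0.909 to 1.89 CPM (median 1.73) in HGPS and 5.68 to 12.9 CPM (median 6.53) in 24-mo WT aortas (log2 fold change -2.41 ± 0.25, adjusted p = 7.3e-06), but here 2-mo WT aortas were as low as HGPS at 0.832 to 1.96 CPM (median 1.31). Ryr2, the calcium release channel, was at 32.9 to 46.1 CPM (median 38.5) in HGPS and 93.8 to 162 CPM (median 101) in 24-mo WT aortas (log2 fold change -1.49 ± 0.13, adjusted p = 1.69e-06). Kcnk3, the acid-sensitive potassium channel TASK-1, was the only rise of the list, at 10.7 to 36.4 CPM (median 27) in HGPS and 2.76 to 10.6 CPM (median 5.02) in 24-mo WT aortas (log2 fold change 2.10 ± 0.35, adjusted p = 0.000324), and its range in 2-mo WT aortas was 1.38 to 13.4 CPM (median 5.66). Its call was lost without 24-mo WT mouse 4 or 5, and its log2 fold change was 0.11 (adjusted p = 0.794) with the brown fat score described further on as a covariate.

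**Figure D3:**
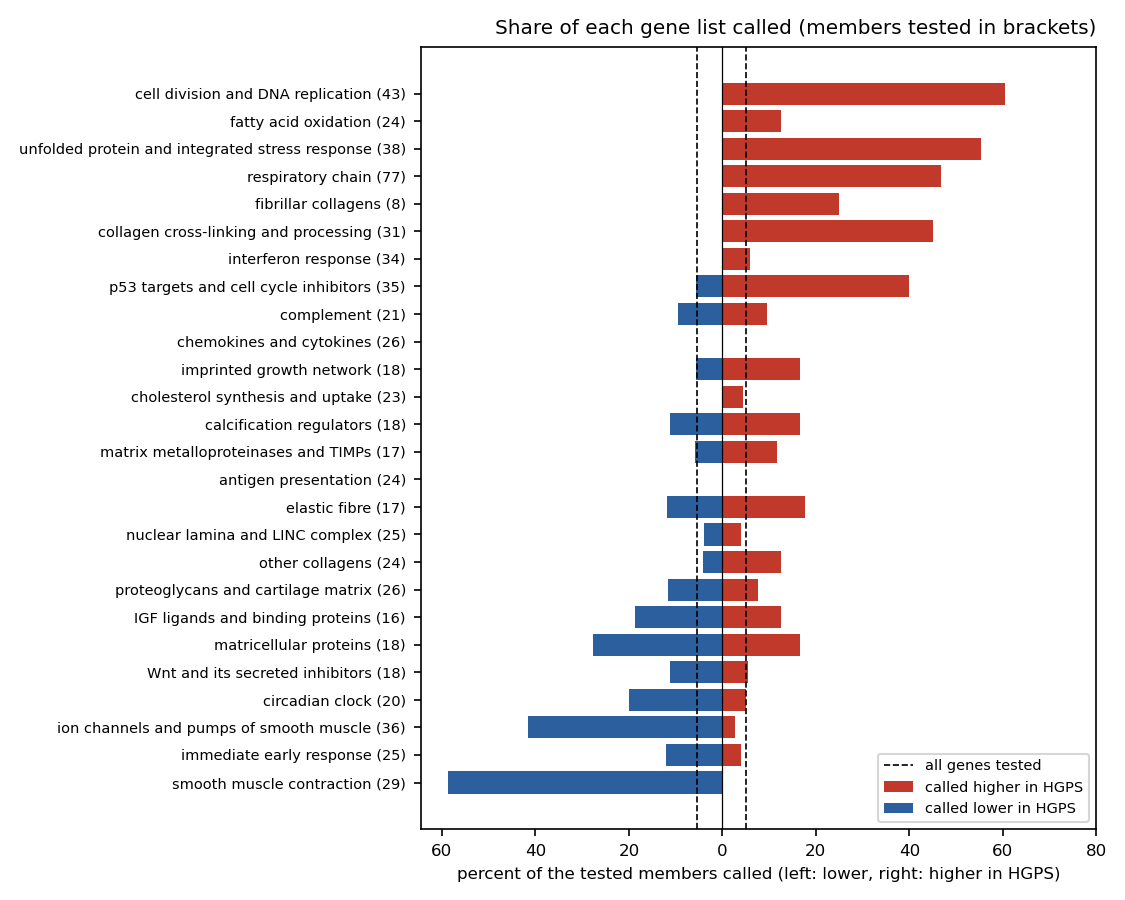
Percent of the tested members of each of 26 gene lists called higher (right) or lower (left) in HGPS, ordered by median log2 fold change, with the shares of all genes tested (4.96% and 5.33%) as dashed lines. Cell division, stress response, respiratory chain, collagen processing and p53 target lists reach far to the right, and smooth muscle contraction and ion channels to the left.

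Markers of other tissues moved with the groups, and these belong beside the metabolic lists. The 12 brown fat markers summed to 552 to 1834 CPM in HGPS and 196 to 592 CPM in 24-mo WT aortas. Of 11 tested members 6 were called higher (54.5%, against 4.96% of all genes). No marker was at 0 in all 12 libraries. White fat markers summed to 1612 to 5275 and 439 to 1873 CPM, so that both sums overlapped by their extremes. Ucp1, the uncoupling protein of brown fat, was at 103 to 964 CPM (median 318) in HGPS and 17.1 to 153 CPM (median 38.7) in 24-mo WT aortas and missed the call (log2 fold change 3.04 ± 0.60, adjusted p = 0.00112).

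With these markers moved genes of the mitochondrion. Of 77 tested genes of the respiratory chain 36 were called higher (46.8%, against 4.96% of all genes). All 77 log2 fold changes were positive and the median was 0.66. Cox7a1, a cytochrome oxidase subunit of brown fat and muscle that is also one of the fat markers, was at 11.8 to 55.8 CPM (median 27.3) in HGPS and 2.16 to 12.6 CPM (median 3.71) in 24-mo WT aortas (log2 fold change 2.66 ± 0.46, adjusted p = 0.000415), with 1 old mouse inside the HGPS range, and its call was lost in 8 of the 12 fits that each left out a mouse. Cycs, cytochrome c, was at 84.4 to 166 CPM (median 102) in HGPS and 50.5 to 58.8 CPM (median 52.6) in 24-mo WT aortas (log2 fold change 1.14 ± 0.16, adjusted p = 7.1e-05), and Cox7b at 74.7 to 129 CPM (median 94.7) in HGPS and 44 to 51.7 CPM (median 47.5) in 24-mo WT aortas (log2 fold change 1.03 ± 0.12, adjusted p = 1.64e-05). Of 24 genes of fatty acid oxidation 3 rose (12.5% called, against 10.3% of all genes), with a median of 0.90. Ppargc1a, the coactivator that drives mitochondrial biogenesis, is also one of the fat markers. It was at 7.65 to 27.5 CPM (median 15.2) in HGPS and 2.16 to 4.59 CPM (median 3.71) in 24-mo WT aortas (log2 fold change 2.25 ± 0.36, adjusted p = 0.000237). With the brown fat score as a covariate Ppargc1a had a log2 fold change of 0.98 (adjusted p = 0.266) and was no longer called.

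The metabolic lists depended on which mice were read. Leaving out single mice gave 25 respiratory chain calls (without 24-mo WT mouse 4) to 56 (without HGPS mouse 4), and 1 (without HGPS mouse 2) to 13 (without HGPS mouse 4) in fatty acid oxidation. Against the same 24-mo WT mice, the 3 HGPS mice with column numbers under 40 in the table, whose brown fat markers summed to 882, 1830 and 1470 CPM, gave 58 respiratory chain calls and a median of 0.86. The 3 with numbers over 40, at 551, 593 and 1010 CPM, gave 8 calls and a median of 0.47. What the column number stands for is not stated, but all 24-mo WT mice had numbers under 40 and all 2-mo WT mice numbers over 40. With the brown fat score as a covariate, an alternative chosen after the data were seen, no respiratory chain gene was called and the median was 0.20. The mean log2 CPM of these markers nearly separates the groups, at 4.38 to 6.16 in HGPS and 2.81 to 4.46 in 24-mo WT aortas. Over all 14925 genes 337 were called with the score, against 1536 without it. The medians of cell division (1.45), stress response (0.83), p53 targets (0.52), collagen processing (0.64) and smooth muscle contraction (-0.49) under that covariate went with 1, 5, 6, 6 and 3 members called in the direction of the median. In the p53 list 1 member was called lower. The part that fat on the vessel had in the metabolic lists was not tested further.

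**Figure D4:**
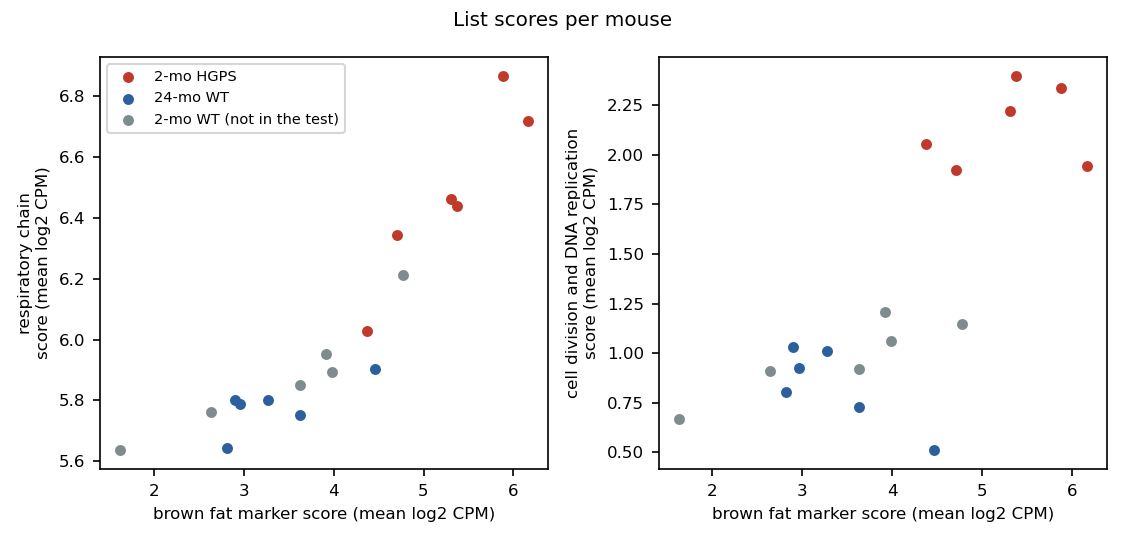
Mean log2 CPM of the respiratory chain genes (left) and of the cell division genes (right) against that of the brown fat markers, 1 point per mouse. In HGPS the mice with the highest brown fat scores also have the highest respiratory chain scores, while cell division scores set the 6 HGPS mice (1.92 to 2.40) apart from all WT mice (0.511 to 1.21).

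The nuclear lamina is the structure that the mutation alters. Of 25 tested genes of the lamina and of the LINC complex, which ties the nucleus to the cytoskeleton, 1 rose and 1 fell (8% called, against 10.3% of all genes, a share near the background). Lmna itself was at 446 to 656 CPM (median 601) in HGPS and 342 to 541 CPM (median 405) in 24-mo WT aortas and overlapped between groups (log2 fold change 0.47 ± 0.12, adjusted p = 0.00665). Counts per gene do not separate the message of progerin from that of Lamin A, so that Lmna did not check the labels. Banf1, a chromatin-bridging protein that binds lamins, rose by 0.63 ± 0.077 (adjusted p = 2.77e-05), and Syne2, nesprin-2, fell by 0.92 ± 0.15 (adjusted p = 0.00021). Lmnb1 had a log2 fold change of 1.01 ± 0.23 (adjusted p = 0.00317) and missed the call.

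Immune lists differed in how many members were called. No gene was called of 24 of antigen presentation or of 26 chemokines and cytokines in edgeR's fit, in which 10.3% of all genes were. DESeq2 called 0 and 4 of them, and 2206 of all 14925 genes. In edgeR's test 5 and 13 of them had an unadjusted p under 0.05, as did 7806 of all genes. Interferon response genes were called in 2 of 34 cases, a share near that of all genes called higher, Ifi27 at 0.75 ± 0.14 (adjusted p = 0.00055) and Ifi27l2a at 1.73 ± 0.34 (adjusted p = 0.000935). Both calls were lost in 9 of the 12 fits that each left out a mouse. Of 21 complement genes 2 rose, C1qb and the receptor C3ar1, and 2 fell, C2 and C7 (19% called, against 10.3% of all genes). The calls of C1qb and C2 were lost in 9 and 7 of those fits. C7, a subunit of the membrane attack complex, was at 51.1 to 80.9 CPM (median 60.8) in HGPS and 134 to 204 CPM (median 149) in 24-mo WT aortas (log2 fold change -1.30 ± 0.13, adjusted p = 5.8e-06). Of the 14 macrophage markers, whose sums are given above, 4 were called higher (28.6%, against 4.96% of all genes) and none lower. Among the 4 were Itgam at 1.14 ± 0.18 (adjusted p = 0.000193) and Cd68 at 0.93 ± 0.16 (adjusted p = 0.000323). Of the 14 log2 fold changes 12 were positive and 2 negative. All HGPS mice lay above all 24-mo WT mice for 5 markers and below them for 1. The part of macrophages in the complement values was not tested.

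Growth factors of the IGF family diverged, with 2 of 16 tested called higher and 3 lower (31.2% called, against 10.3% of all genes). Igf1 was at 76.1 to 135 CPM (median 100.3) in HGPS and 25.3 to 40.9 CPM (median 30.7) in 24-mo WT aortas (log2 fold change 1.69 ± 0.13, adjusted p = 7.11e-07), and 2-mo WT aortas lay between at 54.5 to 83.5 CPM (median 64.7). Igfbp2, an IGF-binding protein, was at 8.3 to 39.6 CPM (median 20.6) in HGPS and 72 to 166 CPM (median 104) in 24-mo WT aortas (log2 fold change -2.39 ± 0.33, adjusted p = 7.7e-05), and 2-mo WT aortas were lower than both in the median, at 4.42 to 11.8 CPM (median 6.51). Igfbp5 fell by 1.42 ± 0.14 (adjusted p = 5.21e-06). Igf2bp2, an RNA-binding protein of fetal growth, was at 4.13 to 6.13 CPM (median 5.08) in HGPS and 0.613 to 1.57 CPM (median 0.882) in 24-mo WT aortas (log2 fold change 2.28 ± 0.23, adjusted p = 5.25e-06), with 2-mo WT aortas at 2.52 to 4.35 CPM (median 3.98).

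Of 18 imprinted growth genes, 3 non-coding RNAs rose and Dcn, named above, fell (22.2% called, against 10.3% of all genes). H19 was at 3.54 to 23.3 CPM (median 7.49) in HGPS and 0.309 to 1.44 CPM (median 0.977) in 24-mo WT aortas (log2 fold change 3.51 ± 0.50, adjusted p = 9.86e-05), Rian at 91.6 to 117 CPM (median 106) in HGPS and 20 to 38.2 CPM (median 28.1) in 24-mo WT aortas (log2 fold change 1.91 ± 0.13, adjusted p = 1.97e-07) and Mirg rose by 2.16 ± 0.24 (adjusted p = 9.89e-06). Rian and Mirg are neighbors in the Dlk1-Dio3 cluster. Their 2-mo WT levels lay between the groups, with Rian at 46.5 to 64.5 CPM (median 61.5). Igf2, the neighbor of H19, overlapped between groups at a log2 fold change of -0.27 ± 0.23 (adjusted p = 0.366).

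Clock genes have levels that depend on the hour at which a tissue is taken. Of 20 members 1 was called higher and 4 lower (25% called, against 10.3% of all genes). Per2 fell by 0.92 ± 0.14 (adjusted p = 0.00012), Cry2 by 0.93 ± 0.11 (adjusted p = 2.6e-05) and Nr1d1 by 0.90 ± 0.15 (adjusted p = 0.000338), whereas Cry1 rose by 0.80 ± 0.14 (adjusted p = 0.000415), and leaving out single mice ended the calls of Nr1d1 and Cry1 in 4 and 6 of 12 fits. Immediate early genes, which respond within minutes to handling, had 1 of 25 members called higher and 3 lower (16%, against 10.3% of all genes). Without 24-mo WT mouse 3, 8 were called lower. Fos was at 14.4 to 35.6 CPM (median 24.7) in HGPS and 11.4 to 518 CPM (median 194) in 24-mo WT aortas and was not called (log2 fold change -3.02 ± 0.64, adjusted p = 0.00175), and Egr1 was at 13.5 to 21 CPM (median 16.2) in HGPS and 19.7 to 99.6 CPM (median 68.7) in 24-mo WT aortas (log2 fold change -1.94 ± 0.29, adjusted p = 0.000115) with overlapping groups. The time of tissue collection is not given in the sources used here, and its part in both lists was not tested.

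Among called genes with a mean of 100 counts or more and groups apart, the largest rises were Mup22 and Mfsd2a. Mup22 belongs to the major urinary proteins, a family of near-identical genes among which reads can be split, so that its value is uncertain, with a log2 fold change of 5.12 ± 0.64, adjusted p = 3.17e-05. Mfsd2a, a transporter of lysophospholipids, was at 3.53 to 20.3 CPM (median 9.38) in HGPS and 0.108 to 0.71 CPM (median 0.34) in 24-mo WT aortas (log2 fold change 4.79 ± 0.54, adjusted p = 1.25e-05). Elovl3, one of the brown fat markers, and Ddah1 rose by 4.20 ± 0.72 (adjusted p = 0.000388) and 3.08 ± 0.53 (adjusted p = 0.000394), but their calls were lost in 5 and 7 of the 12 fits that each left out a mouse. Dhrs9, a retinol dehydrogenase, was at 6.58 to 18.5 CPM (median 8.79) in HGPS and 0.162 to 1.79 CPM (median 0.64) in 24-mo WT aortas (log2 fold change 3.65 ± 0.43, adjusted p = 1.98e-05). Anxa8, an annexin, was at 15.4 to 35 CPM (median 17.4) in HGPS and 1.3 to 4.37 CPM (median 1.74) in 24-mo WT aortas (log2 fold change 3.35 ± 0.30, adjusted p = 2.27e-06), and Hp, haptoglobin, at 239 to 1679 CPM (median 379) in HGPS and 20.8 to 96.2 CPM (median 62.4) in 24-mo WT aortas (log2 fold change 3.15 ± 0.51, adjusted p = 0.000238), with 1 HGPS mouse far above the rest. Vat1l, Apoc1 and Gfra1 rose by 3.11 ± 0.43, 3.01 ± 0.40 and 2.83 ± 0.16 on the log2 scale (adjusted p = 8.03e-05, 4.96e-05 and 3.73e-08). With the brown fat score as a covariate their log2 fold changes were 1.73, 0.79 and 2.74, and the call held only for Gfra1. Under the same covariate Mup22, Mfsd2a, Dhrs9, Anxa8 and Hp had values of 2.86, 3.34, 2.47, 2.91 and 1.81, none of them still called.

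Under the same limits the largest falls were Tnr and Sphkap. Tnr, tenascin-R, was at 0.139 to 0.631 CPM (median 0.441) in HGPS and 8.62 to 16.4 CPM (median 11.3) in 24-mo WT aortas (log2 fold change -4.83 ± 0.28, adjusted p = 4.5e-08), and 2-mo WT aortas were at 0 to 0.518 CPM (median 0.226), as low as HGPS. Sphkap, an anchoring protein of protein kinase A, was at 4.76 to 10.1 CPM (median 6.65) in HGPS and 49.6 to 212 CPM (median 135) in 24-mo WT aortas (log2 fold change -4.22 ± 0.30, adjusted p = 2.83e-07), with 2-mo WT aortas at 3.27 to 17.8 CPM (median 5.67). Rgs5, a regulator of G-protein signaling in smooth muscle cells and pericytes, was abundant at 455 to 945 CPM (median 551) in HGPS and 2421 to 4676 CPM (median 3477) in 24-mo WT aortas (log2 fold change -2.56 ± 0.20, adjusted p = 6.27e-07). Apod, a lipocalin known to increase with age, was at 12.6 to 16.2 CPM (median 14.2) in HGPS and 64.1 to 112 CPM (median 82.6) in 24-mo WT aortas (log2 fold change -2.58 ± 0.15, adjusted p = 3.73e-08), and 2-mo WT aortas at 17.1 to 21.9 CPM (median 18.5). Sema3e, Tceal6, Rgs17 and Cacna2d3 fell by 3.00 ± 0.21, 2.86 ± 0.17, 2.67 ± 0.32 and 2.59 ± 0.20 (adjusted p = 2.55e-07, 6.18e-08, 2.05e-05 and 5.92e-07).

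Fam19a1, a secreted neurokine, had the smallest p of all genes, at 4.75 to 6.9 CPM (median 5.28) in HGPS and 35.9 to 45.3 CPM (median 37.7) in 24-mo WT aortas (log2 fold change -2.82 ± 0.10, adjusted p = 1.31e-09). Trnp1, Enpp5 and Prune2 followed among the falls, by 2.23 ± 0.10, 1.70 ± 0.082 and 2.25 ± 0.12 (adjusted p = 7.98e-09, 8.26e-09 and 2.17e-08). For Prune2 the 2-mo WT aortas lay at 8.87 to 13.8 CPM (median 12.6), overlapping HGPS, so that the old aortas stood alone.

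The mean log2 CPM of the 2-mo WT mice was placed on the line between the group means for every called gene, as a description with no test. The 2-mo and 24-mo WT mice also differ in column number, as given above, and its part in these places was not tested. For the 741 genes called higher in HGPS, the young WT level was nearer 24-mo WT in 612 and nearer HGPS in 129. For the 795 called lower it was nearer 24-mo WT in 586 and nearer HGPS in 209. The young level lay beyond the 24-mo WT mean for 161 and 109 genes and beyond the HGPS mean for 17 and 59. HGPS was thus the group apart for most called genes, as for Cdkn1a, Hmox1, Slc7a11, Mki67 and Myh11, and the old aortas were apart for a smaller set, which held Eln, Col3a1, Cilp2, Ibsp, Sphkap, Tnr, Igfbp2 and Prune2. For Lox the place was 0.52 of the way from the 24-mo WT to the HGPS mean and for Sparc 0.66, so that young WT lay between the groups.

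**Figure D5:**
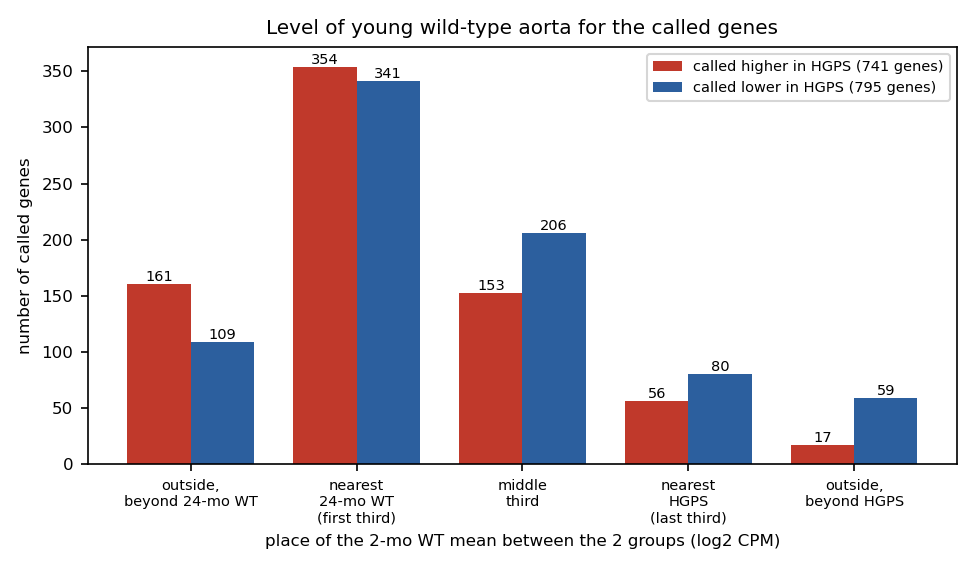
Number of called genes by where the mean log2 CPM of the 6 2-mo WT mice fell relative to the 24-mo WT mean and the HGPS mean, for the 741 genes called higher (red) and the 795 called lower (blue) in HGPS. The tallest bars, 354 and 341 genes, are those in which 2-mo WT lay in the third nearest to 24-mo WT, and the bars at the right, beyond HGPS, hold 17 and 59.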

How the data were processed

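The authors quantified paired-end reads with salmon against GENCODE M23 (GRCm38.p6) and summed transcripts per gene with tximport, and the deposited table holds these estimated counts as whole numbers. The submitters' processing notes also name Bowtie 0.12.2 with no role given. Groups came from the sample labels. Symbols and coordinates were read from GENCODE M21 of the same assembly. Genes that reached 10 counts in 6 or more of the 12 libraries were fitted with TMM factors and edgeR's quasi-likelihood test (edgeR 4.0.16, R 4.3.3), which has 10 residual degrees of freedom here, and p-values were adjusted over all 14925 genes. Standard errors are the log2 fold change divided by the root of F. The 2-mo WT libraries were placed on the same CPM scale and were not tested. Each library is labelled as a mouse of its own. On simulated counts the test recovered 97% of 4-fold and 85% of 2-fold changes with 0 false calls. The changes were set in 200 genes with a mean of 100 counts or more, and each gene was drawn independently. The simulation therefore does not cover scarcer genes or shifts shared by many genes.

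Total counts limit the precision of genes with few reads. Genes were named from the 12 largest rises and falls and the 5 smallest p-values in each direction (called, groups apart, mean over the 12 mice 100 counts or more, no predicted gene models), up to 4 called members of each list in each direction and some genes whatever their values, and others are marked as chosen after their values were seen. The comparison, its members and the lists were chosen with earlier results of these data known. Alternatives were DESeq2 1.42.0, other scaling factors and filters, stricter and looser thresholds, single libraries left out, a replicate block, thinning to the smallest total, subsets of the HGPS libraries and marker scores as covariates, of which smooth muscle alone and brown fat alone were added after the data were seen.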

Additional observations from a re-analysis of the deposited data

Results flagged for a closer look

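Each value below lay further from the other 5 mice of its group than Dixon's 95% limit for 6 values. The rule was applied to 306 groups and met in 22, and chance alone flags about 1 in 20. All values are CPM.

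Mouse 1 of the 24-mo WT group stood apart for 8 genes. It was highest for brown fat and mitochondrial genes, with Ucp1 at 153.3 against 17.07 to 43.44 in the others, Cox7a1 at 12.63 against 2.164 to 4.917, Eci1 at 39.89 against 18.45 to 25.35 and Etfdh at 81.01 against 55.83 to 64.14. It was also highest for Smtn at 1051 against 515.1 to 584.9, Mylk4 at 230.5 against 84.36 to 133, Ryr2 at 162.4 against 93.77 to 106.2 and Ltbp4 at 1039 against 527.1 to 697.4.

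Mouse 6 of the HGPS group stood apart for Hp, at 1679 against 239.5 to 453.1, C4b at 709.5 against 225 to 304.5, Col5a1 at 697.3 against 405.8 to 478.7, Ppic at 119.4 against 103.4 to 108.6 and Mirg at 6.87 against 4.974 to 5.557. Without this mouse Col5a1 had a log2 fold change of -0.0083.

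Single values made up the rest. In 24-mo WT mouse 2, Hmox1 was at 10.28 against 6.87 to 7.92 and Psat1 at 8.695 against 5.698 to 6.708. In 24-mo WT mouse 4, Anxa8 was at 4.371 against 1.298 to 2.012 and C7 at 204.2 against 134.2 to 151.8. Gdf15 was at 0.2705 in 24-mo WT mouse 3 against 0.5561 to 0.7154, Prune2 at 90.24 in mouse 5 against 64.58 to 72.73 and Cd74 at 296.2 in mouse 6 against 66.22 to 113.8. Rrm2b was at 53.9 in HGPS mouse 4 against 36.54 to 41.56, and Dbp at 24.09 in HGPS mouse 5 against 10.82 to 15.15.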

How the results depend on the processing

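Lox kept its direction and its call under every alternative but the smooth muscle score as a covariate, where it had a log2 fold change of 1.75 (adjusted p = 0.0329), and it ranged from 1.73 to 1.82 when single mice were left out. The smooth muscle score separates the groups, and with it as a covariate 0 genes were called higher and 0 lower (1113 with an unadjusted p under 0.05). With single mice left out, 1207 to 1601 genes were called, 558 to 808 higher and 634 to 793 lower. DESeq2 called 1155 genes higher and 1051 lower. The 1.5-fold threshold tested with glmTreat gave 274 (120 and 154), a log2 fold of 0.8 with an adjusted p under 0.0001 gave 550 (230 and 320), and an adjusted p under 0.05 with no fold gave 6669 (3357 and 3312). HGPS columns under 40 gave 610 higher and 506 lower, and those over 40 gave 490 (235 and 255). Brown fat and skeletal muscle scores as covariates left 11 (5 and 6), macrophage with B and plasma cell scores 315 (122 and 193), and the brown fat score alone 337 (135 and 202). The causes were not tested.

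With the replicate number as a block, 959 genes were called (435 and 524), of which 937 were shared with the fit without the block. Same-numbered mice are different animals, their deviations correlated by -0.107 to 0.0747, and 1 of 6 numbers correlated best with its own, so that the numbers do not pair the mice.

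Signs turned under these settings. With the smooth muscle score as a covariate the log2 fold changes were -1.16 for Col11a1, -0.019 for P4ha3, -0.55 for Ddah1, -0.27 for Spp1, -0.73 for Col8a1, -0.69 for Ifi27l2a, -0.27 for C4b, -0.096 for Lmnb1, -0.59 for Cd74, -0.82 for Tnfrsf11b, 1.00 for Igf2 and 0.39 for Mylk4. With brown fat and skeletal muscle scores they were -0.52 for Ucp1, -0.30 for Eci1, -0.32 for Etfdh, -0.015 for Col5a1, -0.54 for Tnfrsf11b, 0.048 for Igf2 and 0.49 for Igkc. With the brown fat score alone they were -0.27 for Ucp1, -0.0058 for Phospho1, -0.13 for Eci1, -0.096 for Etfdh, -0.28 for Col1a1, -0.32 for Col5a1 and -0.19 for Tnfrsf11b. With single mice left out Col5a1 ranged from -0.0083 (without HGPS mouse 6) to 0.26 and Tnfrsf11b from -0.034 (without HGPS mouse 3) to 0.13, with -0.0052 without 24-mo WT mouse 6, and Tnfrsf11b was at -0.16 with HGPS columns over 40. Levels near the count filter are limited by depth.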

Other observations

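Several genes with strong differences lay outside the lists and the naming rule and were chosen after their values were seen. Nppb, the gene of brain natriuretic peptide, was counted 11 to 72 times in each HGPS library and not once in the 6 24-mo WT or the 6 2-mo WT libraries. Against a floor of 3 counts per library it was at least 9.81-fold higher in HGPS (edgeR adjusted p = 0.000101). Derl3, a factor of protein degradation at the endoplasmic reticulum, was at 3.64 to 7.14 CPM in HGPS, 0.153 to 0.382 CPM in 24-mo WT and 0.155 to 0.569 CPM in 2-mo WT aortas.

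Other genes marked the old aortas. Capn13, a calpain protease, was at 9.08 to 14 CPM in 24-mo WT, 0 to 0.279 CPM in HGPS and 0.0813 to 0.622 CPM in 2-mo WT aortas. Ces1g, a carboxylesterase, was at 1.64 to 7.05 CPM in 24-mo WT and 0 to 0.0842 CPM in HGPS aortas, and all 6 2-mo WT libraries held 0 counts. It belongs to a family of similar genes among which reads can be split.

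Mouse 6 of the 24-mo WT group differed from its group in immune genes. Its mean log2 CPM was 5.73 for antigen presentation and 3.29 for interferon response genes, against 4.32 to 4.77 and 1.98 to 2.33 in the other 5. HGPS mice lay at 4.67 to 5.48 and 2.80 to 3.20, so that they overlapped the old mice through this animal for interferon genes.

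Of the other marker sums, fibroblast markers lay at 2652 to 3455 CPM in HGPS and 3327 to 4582 CPM in 24-mo WT aortas. Of 11 tested fibroblast markers 4 were called lower (36.4%, against 5.33% of all genes). Cardiac muscle markers lay at 48.1 to 77.9 and 111 to 203 CPM, a sum that includes Ryr2, listed above among the channels of smooth muscle. The mean log2 CPM of the 6 tested cardiac markers overlapped, at 1.165 to 2.995 in HGPS and 0.897 to 3.12 in 24-mo WT aortas. Of these markers Actc1 was called higher and Ryr2 lower. Skeletal muscle markers (6.17 to 9.75 and 8.38 to 13.7 CPM), mesothelial markers (11.3 to 29.9 and 0.556 to 34.6 CPM), T cell markers (2.23 to 7.68 and 2.29 to 26.8 CPM) and erythroid markers (558 to 5328 and 1792 to 7153 CPM) overlapped between the groups. B and plasma cell, neutrophil, lymphatic endothelial and Schwann cell markers overlapped too. Cholesterol synthesis had 1 of 23 members called higher (4.35%, against 4.96% of all genes), Fdps, a call lost in 9 of the 12 fits that each left out a mouse.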
